A study of Mus musculus with 6 samples.

Results

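The DNA damage checkpoint kinases and the proteins that activate them were followed in newly made RNA of mouse embryonic stem cells before and after loss of ZFP207. The genes were chosen by function, as a list of 10 symbols written with earlier results of the same comparison of depleted with control libraries in view, so their fold changes and calls are given as a description and no test of the list was made. Of the 10 symbols, 9 (Atr, Atrip, Atm, Prkdc, Chek1, Chek2, Topbp1, Rad17 and Hus1) had a row among the 55401 gene rows of the count table. No row was named Claspn. The table lists claspin as Clspn, and its values are given beside those of the 9 members without being counted among them. The cells, of the 129/Ola line, carry ZFP207 fused to an auxin-inducible degron, a tag through which the auxin IAA directs a protein to destruction. The control group holds 3 libraries at 0 h of IAA, whose genotype label is WT, and the depleted group holds 3 libraries at 5 h of IAA, labelled for ZFP207 degradation. The titles and treatment text name the degron cells for both groups, and both were read that way. Whether a single clone was used is not stated in the labels. The series asks how ZFP207 bears on the U1 snRNP, which marks 5′ splice sites for the spliceosome. Cells with IAA but no degron were not analysed here, so IAA and ZFP207 loss cannot be told apart.

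ATR, ATM and DNA-PKcs (the product of Prkdc) are large kinases of the phosphatidylinositol 3-kinase-related family that respond to damaged DNA. ATR, held by its partner ATRIP, is brought to single-stranded DNA at stalled forks and is switched on by TOPBP1, which is recruited through the RAD9-RAD1-HUS1 clamp that RAD17 loads. It then phosphorylates CHK1 (Chek1) with the help of claspin. ATM answers to double-strand breaks through the MRE11-RAD50-NBN complex and phosphorylates CHK2 (Chek2), while DNA-PKcs is recruited by the Ku heterodimer (XRCC5 and XRCC6) for end joining. Embryonic stem cells divide rapidly with a short G1 phase and are known to rely strongly on ATR and CHK1 during replication.

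RNA labelled with 4-thiouridine, a uridine analogue that enters RNA while it is being made, was captured on beads through biotin and sequenced, so the counts weigh recent transcription. The libraries held 14336811 to 25916628 counts, and the members' own counts ran from 424 (Atr in depleted replicate 3) to 10265 (Topbp1 in depleted replicate 2). At 424 counts the counting error alone is 4.86%. All 10 embryonic stem cell markers were above 10 CPM in every library. They summed to 4704 to 5186 CPM in controls and 4929 to 5571 CPM in depleted libraries. The fit with the replicate number as a block, described below, called 2 of these 10. It called 7.90% of all genes lower and 4.96% higher. The fit without a block called 0 of them. The 8 fibroblast markers summed to 6.05 to 10.9 CPM in controls and 2.99 to 5.69 CPM in depleted libraries, with Col3a1, Postn, Lum and Dcn at 0 throughout. The 6 primitive endoderm markers summed to 3.13 to 6.61 and 4.52 to 8.26 CPM, and the 6 markers of differentiating epiblast and mesoderm to 36.1 to 88.1 and 46.1 to 80.3 CPM. On the first principal component (32.4% of the variance) control replicate 2 (83.48) and depleted replicate 2 (31.91) stood apart from the other 4 libraries, which lay between -65.65 and -3.58. Values without a replicate 2 library are given beside only some of the results that it moves. Small fold changes given without them, as for Hus1, Atrip, Topbp1, Chek2 and Clspn, moved too. Zfp207 RNA does not report on a degron, which acts on the protein, so the loss of ZFP207 was not measured here. That RNA read 545, 1116 and 548 CPM in control replicates 1, 2 and 3, and 695, 1467 and 596 CPM after IAA. In bulk RNA, fewer cells making a transcript and less of it per cell cannot be told apart.

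Promoters are shown for Atr, Atm and Rad17, which were lower in the comparison below and whose starts face another gene. Each runs from 250 bases before the RefSeq start of GRCm38.p6 (the assembly named mm10) to 50 bases after it, on the gene's strand. Capitals mark matches on either strand to the GC box GGGCGG, to CCAAT, or to the E2F strings TTTCCCGC, TTTCGCGC, TTTGCCGC and TTTGGCGC. The Atr promoter is chr9:95857347-95857646 on the plus strand, that of Atm is chr9:53536622-53536921 on the minus strand, and that of Rad17 is chr13:100651012-100651311 on the minus strand.
Atr: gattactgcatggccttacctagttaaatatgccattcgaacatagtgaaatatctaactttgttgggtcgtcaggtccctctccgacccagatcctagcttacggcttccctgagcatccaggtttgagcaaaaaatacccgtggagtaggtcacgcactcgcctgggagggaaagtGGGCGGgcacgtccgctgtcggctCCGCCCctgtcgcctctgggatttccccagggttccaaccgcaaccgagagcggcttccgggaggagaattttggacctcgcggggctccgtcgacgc
Atm: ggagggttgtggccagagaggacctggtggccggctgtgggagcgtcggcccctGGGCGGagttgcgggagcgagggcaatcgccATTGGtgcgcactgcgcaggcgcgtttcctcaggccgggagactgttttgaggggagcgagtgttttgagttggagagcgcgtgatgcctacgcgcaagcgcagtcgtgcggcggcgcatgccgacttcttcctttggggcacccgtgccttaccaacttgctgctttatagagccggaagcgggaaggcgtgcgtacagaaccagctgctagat
Rad17: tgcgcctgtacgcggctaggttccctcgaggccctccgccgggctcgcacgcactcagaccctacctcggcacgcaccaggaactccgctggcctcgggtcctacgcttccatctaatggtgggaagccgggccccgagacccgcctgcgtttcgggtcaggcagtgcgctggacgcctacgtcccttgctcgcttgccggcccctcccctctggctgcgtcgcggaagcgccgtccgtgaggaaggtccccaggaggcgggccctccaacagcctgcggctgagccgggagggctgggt

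Of the 9 members, 8 matched the RefSeq promoter table, and Prkdc had no entry. All 8 promoters were rich in CpG, with 21 to 38 CpG pairs in 300 bases against a median of 7 over 32851 promoters, and a GC content of 54.7 to 73.7% against a median of 52.7%. Atr held 2 GC boxes, at -72 and -48 from the start, and neither CCAAT nor an E2F string. Atm held 1 GC box at -196 and 1 CCAAT match at -165, and Rad17 held no match to any of the strings. Across the 8 promoters, 5 held a GC box, 3 held CCAAT and 2 (Chek2 and Topbp1) held an E2F string, against 35.7%, 37.4% and 2.26% of all promoters. That wider set was not matched to the 8 for GC or CpG. No matches overlapped in these 8. Such matches are letters in a window and were not tested as binding sites.

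Atr was the member that fell most. Levels are given as CPM, the usual depth-scaled share of a library's counts, after TMM (trimmed mean of M values) scaling between libraries. Atr (chromosome 9, 95857597 to 95953217) stood at 112, 168 and 113 CPM in control replicates 1, 2 and 3, and at 33.9, 55.3 and 28.7 CPM in the same order after IAA. Every depleted library lay far below the lowest control, and replicate 2 was the highest library of either group. The mean went from 131 ± 32.1 to 39.3 ± 14.1 CPM (SD, n = 3), a 3.32-fold fall (log2 fold change -1.73, SE 0.27). Each pair of same-numbered libraries showed it, at -1.72, -1.60 and -1.98 on the log2 scale. The edgeR fit without a block (the unpaired fit) and the fit with the replicate number as a block (the paired fit) both called it lower at an adjusted p under 0.05.

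**Figure D1:**
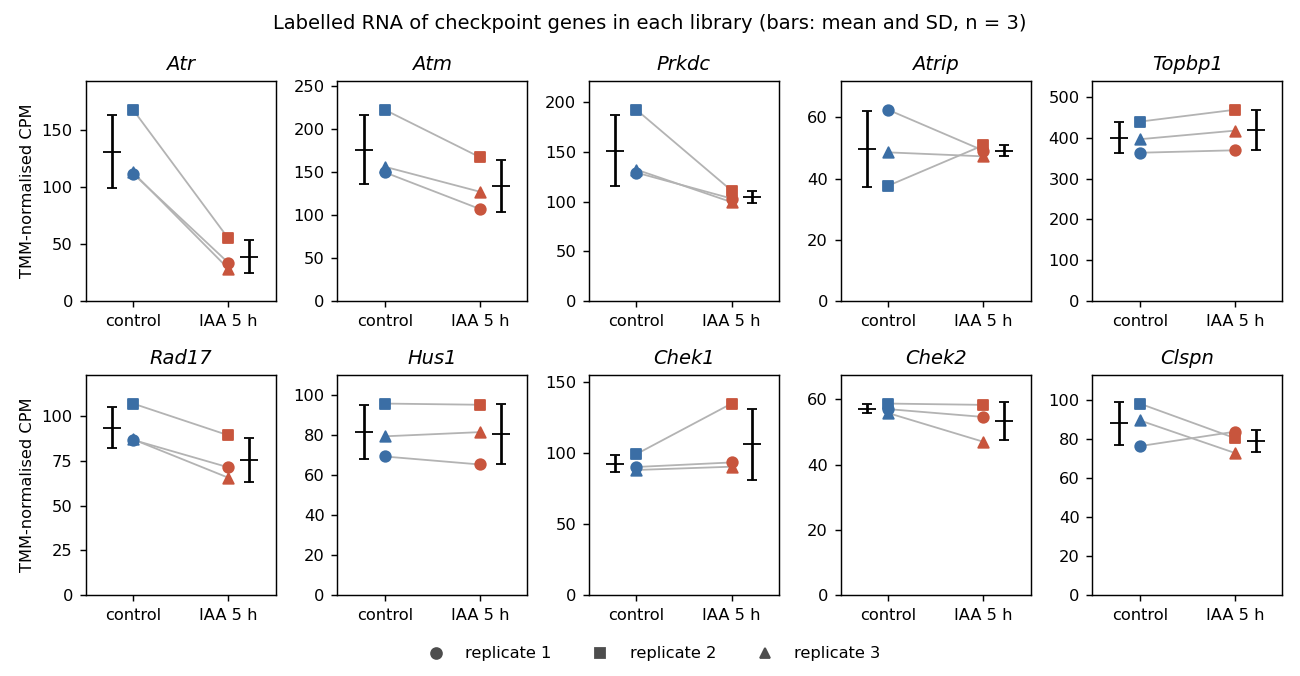
Each panel plots TMM-normalised CPM (linear axis from 0) of 1 gene in the 3 control and 3 depleted libraries, with grey lines joining libraries of the same replicate number, and bars giving mean and SD (n = 3). Atr drops in every pair with no overlap between groups, and Prkdc also separates. The groups of Atm, Atrip, Topbp1, Rad17, Hus1, Chek1, Chek2 and Clspn overlap.

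Atm and Prkdc, the kinases related to Atr, moved less. Atm (chromosome 9, 53437122 to 53536828) read 149.5, 222 and 156 CPM in controls and 107, 167 and 127 CPM in depleted libraries. Replicate 2 was the highest library of both groups, so the groups overlapped although each depleted library lay below its own control. The mean went from 176 ± 40.0 to 133 ± 30.6 CPM (SD, n = 3), with a log2 fold change of -0.40 (SE 0.21). The paired fit called Atm lower (-0.40, SE 0.08) and the unpaired fit did not.

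Prkdc (chromosome 16, 15637444 to 15842239) read 129, 192 and 132 CPM in controls against 103, 111 and 99.4 CPM after IAA, so that its groups did not overlap. Its mean went from 151 ± 35.6 to 105 ± 5.89 CPM (SD, n = 3), with a log2 fold change of -0.53 (SE 0.18) in the unpaired fit, which did not call it. In the paired fit it was called lower, at -0.51 (SE 0.10). Most of the control spread came from replicate 2, which was also the highest control library for Atr and Atm. Without control replicate 2 the unpaired log2 fold changes were -0.32 for Prkdc, -0.20 for Atm and -1.51 for Atr. Depleted replicate 2, the highest depleted library for each of these genes, stayed in that fit. With both replicate 2 libraries left out, the paired fit gave -0.36, -0.40 and -1.84 in the same order.

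Atrip and Topbp1, whose products place ATR on DNA and switch it on, were called in neither fit. Atrip (chromosome 9, 109059747 to 109074124), whose product holds ATR on coated single-stranded DNA, read 62.5, 37.7 and 48.6 CPM in controls and 49.2, 50.9 and 47.3 CPM in depleted libraries. Its depleted libraries all lay inside the control range. The log2 fold change was -0.01 (SE 0.20), and neither fit called it. Topbp1 (chromosome 9, 103305167 to 103350428), the activator of ATR, read 363, 439 and 396 CPM in controls and 369, 468 and 417 CPM after IAA. Each depleted library was slightly above its control, the groups overlapped, and the log2 fold change of 0.07 (SE 0.15) was called in neither fit.

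Rad17, the clamp loader subunit (chromosome 13, 100617164 to 100651061), was the only activator among the members that the paired fit called. It read 86.7, 107 and 87.0 CPM in controls and 71.4, 89.3 and 65.6 CPM in depleted libraries. Each depleted library lay below its own control, while depleted replicate 2 lay above control replicates 1 and 3. The log2 fold change was -0.31 in both fits (SE 0.17 unpaired and 0.09 paired). The paired call was lost when any 1 replicate number was left out, where the value ran from -0.34 to -0.28. The unpaired value was -0.20 without control replicate 2. Hus1, a subunit of the clamp itself (chromosome 11, 8993137 to 9011236), read 69.4, 95.9 and 79.5 CPM in controls and 65.4, 95.3 and 81.6 CPM after IAA. Those groups overlapped almost fully, and the log2 fold change was -0.01 (SE 0.19) with no call in either fit.

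The effector kinases were not called in either fit. Chek1 (chromosome 9, 36708482 to 36726658) read 90.3, 99.4 and 88.2 CPM in controls and 93.5, 135 and 90.5 CPM in depleted libraries. Only depleted replicate 2 stood above all controls, and the unpaired log2 fold change of 0.20 (SE 0.18) was -0.01 without that library. Chek2 (chromosome 5, 110839800 to 110874140) read 57.0, 58.7 and 55.8 CPM in controls and 54.6, 58.3 and 47.0 CPM after IAA. Its control values were the tightest of the members, depleted replicate 3 was the lowest library, and the log2 fold change was -0.10 (SE 0.15). Clspn, which encodes the CHK1 adaptor claspin (chromosome 4, 126556957 to 126594533), read 76.3, 98.1 and 89.5 CPM in controls and 83.7, 80.4 and 72.8 CPM in depleted libraries. Its groups overlapped, and the log2 fold change of -0.15 (SE 0.15) was called in neither fit.

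Counted together, the unpaired fit called 1 of the 9 members lower, where it called 0.780% of 17573 genes lower, and the paired fit called 4 lower, where it called 7.90%. No member was called higher, against 0.0114% of genes by the unpaired fit and 4.96% by the paired one. The depleted library was lower in all 3 pairs for 5 members (Atr, Atm, Prkdc, Rad17 and Chek2), as it was for 24.1% of genes. It was higher in all 3 pairs for 2 members (Chek1 and Topbp1), as for 24.2% of genes. Groups separated with depleted libraries below controls for 2 members, Atr and Prkdc, and for 11.8% of genes. The members' median log2 fold change was -0.10, beside 0.02 over all genes tested. Since the list was drawn up with this comparison known, these shares are set beside each other without a test. Atr lost its unpaired call when any single library was omitted, with log2 fold changes between -2.06 and -1.51, as did nearly all genes of that fit, which then called at most 1 gene in either direction. With the replicate block Atr stayed called without each replicate number in turn (-1.84 to -1.67), as did Prkdc (-0.60 to -0.36), whereas Atm lost its call without replicate 1 (-0.36).

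**Figure D2:**
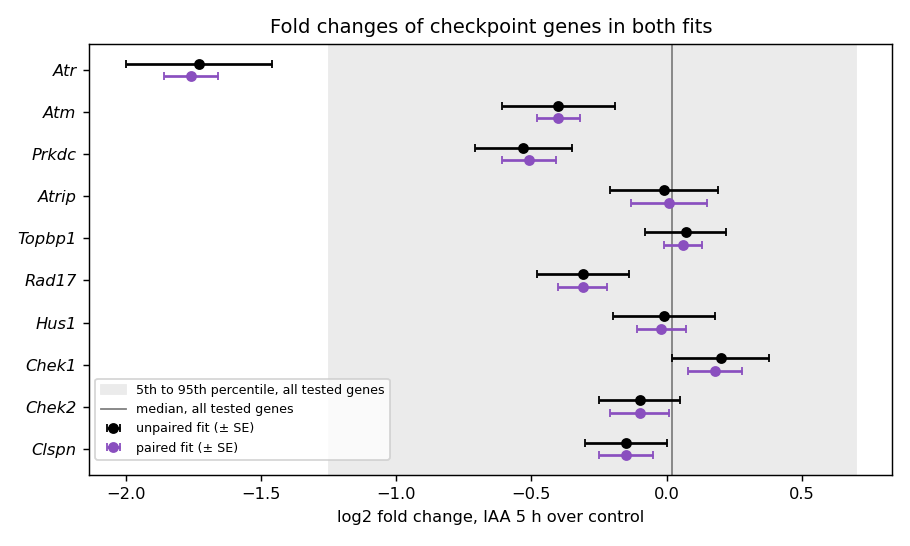
Points give the log2 fold change (depleted over control) of each gene in the unpaired fit (black) and the paired fit (purple) with SE, the grey band spans the 5th to 95th percentile of all tested genes (-1.25 to 0.70) and the line their median (0.02). Atr alone lies outside the band, and the paired fit has smaller errors at nearly the same estimates.

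Of the 4 members called lower in the paired fit, Atr, Atm and Prkdc are the longest of the 9, and Rad17 is of middle length. Atr spans 95.6 kb, Atm 99.7 kb and Prkdc 204.8 kb, while the members of 10 to 30 kb (Atrip 14.4 kb, Hus1 18.1 kb and Chek1 18.2 kb) were not called. Rad17 spans 33.9 kb, less than Chek2 (34.3 kb) and Topbp1 (45.3 kb), which were not called. Genes under 10 kb (5063) had a median log2 fold change of 0.14, with 2.41% called lower and 5.89% higher in the paired fit. Among 4673 genes spanning 10 to 30 kb the median log2 fold change was 0.04, and the paired fit called 9.27% of them lower and 7.30% higher. Genes spanning 30 to 100 kb (3882) had a median of -0.07 with 13.9% lower and 4.48% higher. The class of at least 100 kb (1744 genes) had a median of -0.12, with 12.6% lower and 1.32% higher. Set within its own class, Prkdc stood at percentile 22.9 of log2 fold change and Atm at 24.5, both well inside the spread of genes of like length. Atr stood at percentile 2.47, as the 96th lowest of its class, and at 2.34 among all genes. Rad17 was at percentile 29.7, Chek2 at 46.7 and Topbp1 at 65.6 of the same class. The part that length plays in these values was not tested.

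**Figure D3:**
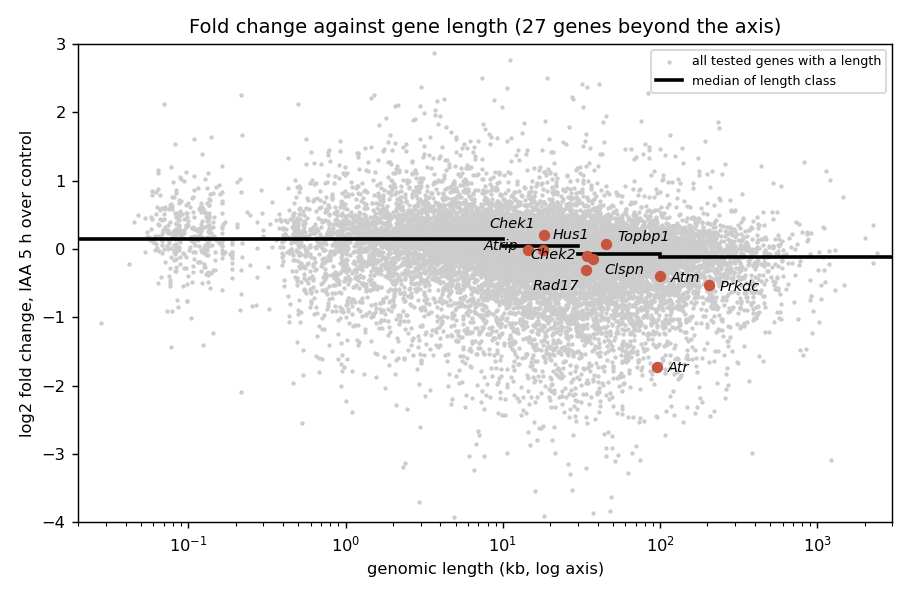
Each grey point is 1 of 15362 tested genes, with genomic length in kb (log axis) against log2 fold change, black bars are medians of the length classes, and red points are the checkpoint genes (27 genes lie beyond the axes). Prkdc and Atm sit near the bulk of long genes, and Atr lies far below the median of its class (-0.07).

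Ratios of partner genes within a library are free of the scaling between libraries. Transcript lengths differ, so only the change of a ratio is read, and the pairs were picked after their values had been seen, with no test. The log2 ratio of Atr to Atrip was 0.84, 2.16 and 1.21 in controls and -0.54, 0.12 and -0.72 in depleted libraries. It dropped in every pair, with a mean change of -1.78. The ratio of Atr to Atm was close to constant in controls, at -0.42, -0.40 and -0.47, and was -1.65, -1.59 and -2.14 after IAA. Its change was -1.36, with a spread (SD, n = 3) of 0.03 among controls and 0.30 among depleted libraries. The log2 ratio of Chek1 to Atr, effector to kinase, went from a mean of -0.47 to 1.47.

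**Figure D4:**
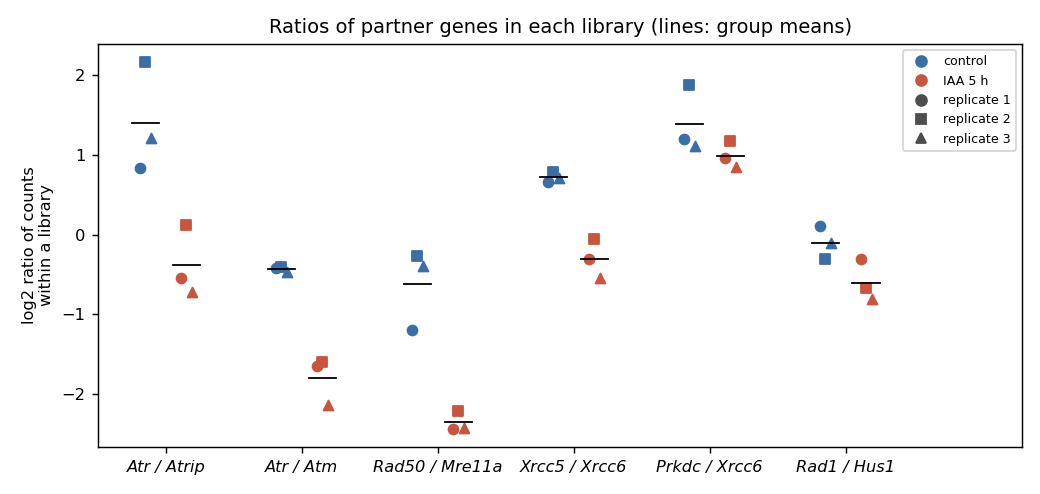
The log2 ratio of counts of 2 genes within each library is plotted for 6 partner pairs in control (blue) and depleted (red) libraries, marker shape gives the replicate number and lines the group means. Atr to Atrip, Atr to Atm, Rad50 to Mre11a and Xrcc5 to Xrcc6 separate without overlap, each lower after IAA.

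Beyond the members, Rad50, Xrcc5 and Abraxas1 were called lower in both fits. Of 58 further pathway genes with a row, all tested, the unpaired fit called 3 lower (5.17%) and 0 higher, and 8 (13.8%) had an unadjusted p under 0.05 in that edgeR fit, near the 10.9% of all genes. The paired fit called 9 lower (15.5%) and 5 higher (8.62%), beside 7.90% and 4.96% of all genes. Their median log2 fold change was 0.01. The role lists were named from textbook functions with earlier results of these data known. Each list is small, so its counts of calls are given as a description beside these same shares of all genes. In the unpaired fit those shares were 0.780% lower and 0.0114% higher.

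Among the activators of ATM and DNA-PK, 2 of 7 were called lower in both fits and 0 higher. Rad50, the ATPase that tethers DNA ends in the MRE11 complex (chromosome 11, 53649519 to 53707319), read 56.2, 109 and 87.0 CPM in controls and 22.6, 25.4 and 21.5 CPM after IAA. Every depleted library lay below every control, a 3.62-fold fall (log2 fold change -1.86, SE 0.24, edgeR adjusted p = 0.0300). Its partners Mre11a (-0.08) and Nbn (0.18) were not called. Xrcc5, the larger Ku subunit (chromosome 1, 72307417 to 72394953), read 88.7, 90.8 and 99.6 CPM in controls and 42.9, 47.8 and 37.8 CPM in depleted libraries. It fell 2.17-fold without overlap (log2 fold change -1.12, SE 0.15, edgeR adjusted p = 0.0300), while the other Ku subunit gene Xrcc6 (-0.11) was not called. Within libraries, Rad50 to Mre11a changed by -1.73 and Xrcc5 to Xrcc6 by -1.02 on the log2 scale.

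The list of other family kinases and their TTT chaperone, which folds and stabilises ATR, ATM, DNA-PKcs and mTOR, held 1 gene lower and 1 higher of 6 in the paired fit and 0 in the unpaired fit. Tti1, a subunit of that chaperone (chromosome 2, 157981803 to 158028475, overlapped by Rprd1b, Gm34402 and Gm18385), read 49.6, 70.7 and 63.0 CPM in controls and 23.8, 35.1 and 31.8 CPM in depleted libraries. The groups did not overlap (paired log2 fold change -1.02, SE 0.11, paired edgeR adjusted p = 1.58e-04, unpaired 0.0771). The other chaperone subunit genes, Telo2 (0.31) and Tti2 (0.16), were not called. Trrap, a family member without kinase activity that serves in acetyltransferase complexes, rose 1.22-fold (paired edgeR adjusted p = 0.0182, lost without any 1 replicate number), and Mtor (-0.07) and Smg1 (0.21) were not called.

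Of 10 clamp, clamp loader and ATR activator genes, 2 fell in the paired fit. Rad1, the clamp subunit that sits between RAD9 and HUS1 (chromosome 15, 10486018 to 10499063, overlapped by Ttc23l), went from 75.5 ± 1.49 to 52.9 ± 6.59 CPM (SD, n = 3, paired edgeR adjusted p = 0.00576). Rfc4, a small loader subunit that works with RAD17 (chromosome 16, 23113948 to 23127730, overlapped by Eif4a2), went from 28.9 ± 6.95 to 17.1 ± 1.55 CPM (SD, n = 3, paired edgeR adjusted p = 0.00941). Neither overlapped between groups, and neither was called unpaired. The Rad1 call was lost without replicate 3 (paired edgeR adjusted p = 0.0533) and that of Rfc4 without replicate 1 (0.0848). Rad9a, Rad9b, Hus1b, Rfc2, Rfc3, Rfc5, Rhno1 and Etaa1, the last an ATR activator that acts apart from TOPBP1, were not called, with log2 fold changes from -0.29 to 0.25. In the fork protection list 2 of 6 genes fell in the paired fit, Wdhd1 by 1.34-fold (edgeR adjusted p = 0.00510) and Tipin by 1.20-fold (edgeR adjusted p = 0.0489), the latter lost without any 1 replicate number. Rpa1, Rpa2, Rpa3 and Timeless were not called.

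At breaks, ATM and ATR signals spread through chromatin mediators, of which 2 of 11 fell and 1 rose in the paired fit. Abraxas1, the scaffold of the BRCA1-A complex (chromosome 5, 100804802 to 100845864, overlapped by Gpat3 and Gm26286), read 32.6, 43.0 and 37.6 CPM in controls and 11.4, 16.6 and 13.7 CPM after IAA. It fell 2.71-fold without overlap and passed the unpaired fit too (log2 fold change -1.44, SE 0.22, edgeR adjusted p = 0.0335). Rnf168, a ubiquitin ligase of histone H2A (chromosome 16, 32277461 to 32301442), fell 1.44-fold in the paired fit (edgeR adjusted p = 0.00215). H2ax, the histone variant that these kinases phosphorylate (chromosome 9, 44334715 to 44336077), rose from 139 ± 48.6 to 186 ± 32.0 CPM (SD, n = 3, paired edgeR adjusted p = 0.0118), a call lost without replicate 2 or replicate 3. Its unpaired log2 fold change of 0.42 was 0.19 without control replicate 2. Mdc1, Trp53bp1, Rnf8, Brca1, Bard1, Uimc1, Brcc3 and Paxip1 were not called.

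Of the 18 genes in the cell cycle and p53 lists, 0 were called lower in either edgeR fit and 0 had an unadjusted p under 0.05 in the unpaired one. At a paired background of 7.90%, so few genes give little basis for reading that 0. Among 11 cell cycle targets, 2 rose in the paired fit, Plk1 by 1.26-fold (edgeR adjusted p = 0.0148, lost without replicate 1 or replicate 3, with an unpaired log2 fold change of 0.32 that was 0.21 without control replicate 2) and Cdk2 by 1.20-fold (edgeR adjusted p = 0.0387, lost without any 1 replicate number). The phosphatase genes Cdc25a, Cdc25b and Cdc25c, which CHK1 and CHK2 restrain, and the inhibitory kinase gene Wee1 were not called. In the p53 arm 1 of 7 rose. Cdkn1a, the p53-induced inhibitor of cyclin-dependent kinases (chromosome 17, 29090979 to 29100722), read 82.4, 35.8 and 84.8 CPM in controls and 111, 58.5 and 112 CPM in depleted libraries. It was higher in each pair although the groups overlapped (paired log2 fold change 0.51, SE 0.10, paired edgeR adjusted p = 0.00517). Its control replicate 2 was the lowest library, and the unpaired log2 fold change of 0.47 was 0.16 without it and 0.72 without depleted replicate 2. Trp53, Mdm2, Mdm4 and Ppm1d were not called. When any 1 library was omitted, the unpaired fit called none of the 58 genes, with adjusted p from edgeR of 0.0521 to 0.157 for Rad50, Xrcc5 and Abraxas1, whereas leaving out 1 replicate number left 7 or 8 lower and 1 or 2 higher in the paired fit.

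**Figure D5:**
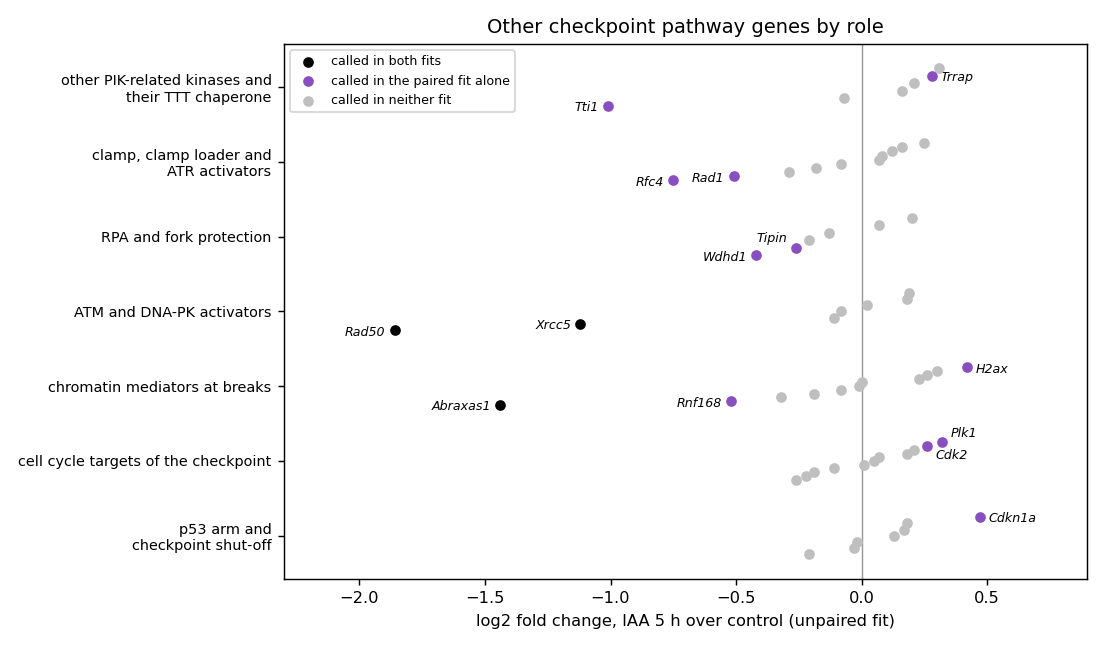
Each point is 1 of 58 tested pathway genes, grouped by role, at its unpaired log2 fold change (depleted over control); black genes were called in both fits, purple in the paired fit alone and grey in neither. The largest falls are Rad50 (-1.86), Abraxas1 (-1.44), Xrcc5 (-1.12) and Tti1 (-1.01), and cell cycle targets lie close to 0.

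Several members lie close to another gene, and these neighbours were read as a neighbouring measure chosen after the member values were seen. By the starts used for the promoters, Atm begins 376 bases from Npat, a histone gene activator read in the opposite direction. That start lies inside the Atm interval given above, and 60 bases lie between the intervals of Atm and Npat. Npat averaged 222 CPM before and 229 CPM after IAA (log2 fold change 0.04, SE 0.20, edgeR adjusted p = 0.967), while Atm was lower in all 3 pairs. Rad17 starts 282 bases from the shared start of Ak6 and Taf9, and these had log2 fold changes of 0.17 and 0.36 with a call in neither fit. The Prkdc interval begins 43 bases beyond the end of that of Mcm4, a replicative helicase subunit gene, which read 217 and 204 CPM on average (log2 fold change -0.09, SE 0.14, edgeR adjusted p = 0.883). Hscb, whose interval ends 6 bases before that of Chek2, was lower in all 3 pairs at low levels, 1.97 and 1.13 CPM on average (log2 fold change -0.79, SE 0.57, edgeR adjusted p = 0.688). No strand was listed for Mcm4 or Hscb. Atr starts 80 bases from the start of 1700065D16Rik, whose interval overlaps the start of Atr on the other strand. 1700065D16Rik reached only 1.21 and 1.14 CPM on average in control and depleted libraries. Gm16794, which overlaps the end of Atr on the other strand, had 2.18 and 1.30 CPM. A further gene, LOC115487301, also overlaps Atr. Atrip is overlapped by Atrip-trex1, Prkdc by Gm52255, and Clspn by Mir7119 and Gm12936.

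Xrn1, a cytoplasmic exonuclease gene, lies 1532 bases downstream of Atr on the same strand. It went from a mean of 156 to 97.9 CPM and was called lower in the paired fit alone (log2 fold change -0.68, edgeR adjusted p = 2.35e-04, unpaired 0.182). Of 44 tested genes within 100 kb of a member or of Clspn, the paired fit called 5 lower (11.4%) and 1 higher (2.27%), beside 7.90% and 4.96% of all genes. The unpaired edgeR fit called 0, with 7 (15.9%) at an unadjusted p under 0.05 beside 10.9% of all genes, and their median log2 fold change was -0.01. The lower ones were Xrn1, Poglut3 near Atm, Ube2v2 near Prkdc, Ttc28 near Chek2 and Cdk7 near Rad17. Of the 9 members, 5 lie on chromosome 9, which holds 5.47% of the tested genes with a listed chromosome, and no 2 of them are within 100 kb of each other.

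Genes whose log2 CPM followed that of Atr most closely over the 6 libraries were Ppa2, a mitochondrial pyrophosphatase gene (Pearson r = 0.9990), the zinc finger gene Zkscan8 (0.9988) and Gm44321 (0.9977). Zkscan8 went from 67.2 to 22.7 CPM and Ppa2 from 36.2 to 15.0 CPM. These values rest on only 6 libraries, and at the looser bound of 0.95 there were 299 genes with a higher r to Atr. For Atm the closest were Gm46436 (0.9988), the purine salvage gene Hprt (0.9962) and Dab1 (0.9951), all of which shared its peak in replicate 2, and 145 genes were above 0.95. These are descriptions of libraries that share depth and the replicate structure.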

How the data were processed

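RNA labelled with 4-thiouridine was sequenced in 6 libraries, 3 per group. The authors deposited 1 table of estimated counts per gene, given as whole numbers. HISAT2 2.2.1, StringTie 2.2.1, DESeq2 1.42.0 and mm10 are listed, per the submitters' processing notes, with no role. No source used here states strand use, the labelling time or spike-ins. Without strand, reads of overlapping genes cannot be told apart.

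The filterByExpr step of edgeR 4.0.16 (R 4.3.3) left 17573 genes, which were scaled by TMM and compared by the quasi-likelihood test with robust dispersions, with Benjamini-Hochberg adjustment over all of them and calls at adjusted p under 0.05. Each SE was worked back from this test, as the absolute log2 fold change over the square root of its F statistic. The unpaired fit had no block. Same-numbered libraries deviated together from their group means (r across genes 0.268, 0.387 and 0.321, against -0.265 to -0.025 for other pairs). Deviations from a group mean cancel within the group, so positive values for same-numbered libraries force negative ones among other pairs. The contrast is thus partly fixed by the centring. Same-numbered libraries were treated as pairs, and the paired fit has the replicate number as a block. The design text calls the replicates independent without saying at which step, so the p-values reflect only how these libraries vary, which may be technical.

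The members and lists were chosen with earlier results of these data known. Of 62 pathway symbols listed, 58 had a row, and the other 4 were alternative names of listed genes. Named pathway genes are those called in either fit, up to 15, with the largest unpaired fold change first, besides all members and the 3 genes most like Atr and Atm in log2 CPM. Genomic lengths came from a RefSeq table of GRCm38.p6. The levels per coding length that had been planned were not computed, since no protein or transcript lengths were used here, so levels are compared only within a gene. Alternatives were other scalings and filters, DESeq2 1.42.0 with and without the block, and omission of each library or replicate number. The fits were also run on simulated data, and the outcome is not reported here.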

Additional observations from a re-analysis of the deposited data

How the results depend on the processing

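Other scalings (relative log expression, upper quartile) and filters on low counts left 1 member and 3 pathway genes lower and 0 higher in edgeR. With the replicate block, edgeR called 1388 genes lower and 871 higher, 4 members lower, and 9 pathway genes lower and 5 higher, against 137, 2, 1, 3 and 0 in the unpaired fit. DESeq2 without a block called 579 genes lower and 62 higher, with 1 member and 4 pathway genes lower. With the replicate block it called 1401 lower and 1137 higher, with 4 members lower and 8 pathway genes in each direction. Over the 6 omissions of a library from the unpaired fit, 0 or 1 genes were called in each direction, with 0 members and 0 pathway genes. With the replicate block and without replicate 1, 2 or 3, edgeR called 927, 1016 and 699 genes lower and 491, 412 and 250 higher. The members called lower were then 2, 3 and 3, and pathway genes were 7, 8 and 7 lower and 2, 2 and 1 higher. No member was called higher under any of the 16 alternatives, and their median log2 fold change lay between -0.20 and -0.03. Among the members and the named pathway genes, none called in either fit changed sign. Control replicate 2 and depleted replicate 2 had the most weight on Atr (-1.51 and -2.06 without them), Atm (-0.20 and -0.59) and Rad17 (-0.20 and -0.45). Without depleted replicate 1 Atm was -0.26. Each of these omissions kept the same-numbered library of the other group. With both replicate 2 libraries left out, the paired fit gave -1.84 for Atr, -0.40 for Atm and -0.34 for Rad17. Without both replicate 1 libraries it gave -0.36 for Atm. The cause of the shifts was not tested.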
